A study of Mus musculus with 8 samples.

Results

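The nuclear genes of respiratory complex III, respiratory complex IV and the ATP synthase were followed in RNA sequencing of regulatory T cells (Treg cells), a CD4 T cell type that holds immune responses in check. Members were taken by name: genes whose symbol starts with Uqcr, genes starting with Atp5, Cox genes with a single digit from 4 to 8 followed by a letter, and Cyc1, without the symbols that mark pseudogenes by -ps. This gave 47 of the 57180 genes in the deposited table, 9 of complex III, 19 of complex IV and 19 of the ATP synthase. The cells were mouse Treg cells that had been sorted by flow cytometry from different mice. Their 8 libraries form 2 groups by title, 5 chimera WT and 3 chimera KO, called the WT and KO libraries here after their titles only. No label names a deleted gene, so the titles could not be checked against its level. The labels give no strain, sex, age, treatment or further genotype, and do not say what each chimera was made from or whether every library comes from 1 mouse, so the tests speak of variation among libraries, which may in part be technical. The series title places the study in the copper control of the suppressive function of Treg cells.

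Complex III passes electrons from ubiquinol to cytochrome c, and complex IV, the cytochrome c oxidase, passes them on to oxygen. Both pump protons, and the ATP synthase lets these protons flow back to make ATP. Each complex joins subunits made in the cytosol from nuclear genes to a few subunits encoded by mitochondrial DNA. The catalytic centres of complex IV hold copper and heme, while those of complex III hold heme and an iron-sulfur cluster. Resting and regulatory T cells are known to draw strongly on mitochondrial respiration.

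Levels are given as normalised CPM, that is counts per mega count of a library after scaling by its TMM factor, edgeR's correction for differences in RNA composition. Library totals ran from 4.31 to 17.98 M (mega counts) of expected counts. The 3 KO libraries held 65.0 to 78.4% of their counts in protein-coding genes, and the 5 WT ones 81.8 to 90.3%. WT libraries 4 and 5 stood apart: they had the fewest genes with at least 10 counts (8201 and 9422, against 12398 to 14245 in the other 6). Their TMM factors were the lowest (0.4 and 0.689, against 1.08 to 1.49), and a factor under 1 raises the normalised values of a library. Of 8 Treg and T cell markers, 7 or 8 reached 10 counts in every library, but Foxp3, the factor that defines Treg cells, stood at 11.9, 36.6, 41.9, 3.09 and 1.26 normalised CPM in WT libraries 1 to 5 and at 26.6, 2.69 and 24.2 in KO libraries 1 to 3. The summed level of 6 B cell markers was 6195 normalised CPM in WT library 4 against 131 to 607 elsewhere. That of 7 NK and CD8 T cell markers was 4140 there against 4.49 to 144 elsewhere, with Ncr1 at 0 in every library. Klrb1c, Prf1 and Cd8a were at 0 in WT library 4 as well. The sum of 6 erythroid markers was 9102 in WT library 5 against 0 to 22.2 elsewhere. The sum of 6 myeloid markers was 691 and 395 in WT libraries 4 and 5 against 23.1 to 184. Cst3 alone made up 399 and 394 of these, and S100a9 stood at 189 in WT library 4. Lyz2 and Csf1r were at 0 counts in both, and S100a8 and S100a9 at 0 in WT library 5. The myeloid sums thus do not stand for the whole list. WT libraries 4 and 5 also had the highest levels of most members, so the main results are given with and without them. Their part in the results was not tested otherwise, and in bulk libraries fewer cells of a type and less RNA per cell cannot be told apart.

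Short motifs were looked for in the promoters, because nuclear respiratory genes are known targets of the factors NRF1, GABP (an ETS factor) and YY1. Promoters came from RefSeq on GRCm38.p6, with 37 entries for 34 members and none for 13, and the 250 bases before each start were read on both strands. The ETS core CCGGAAG, or CTTCCGG on the other strand, was found in 8 of the 37 (21.6%), against 6.91% of all 32851 promoters. The palindrome bound by NRF1, in capitals in the sites shown further on, was found in 3 (8.11%), against 0.782%. YY1's AAGATGGC was found in 1 (2.7%), against 1.56%, and the general promoter box CCAAT in 19 (51.4%), against 33.8%. Of these 37 windows 9 were free of annotated exons of any gene. The sites printed for Atp5pf and Atp5mc2 lie inside the GENCODE span of their own gene, which has starts further upstream, and those of Atp5pd, Cox6b1, Uqcrh and Atp5me and the ETS site of Cox6a1 reach into theirs. A match is a description of the letters and not of binding, and other members may hold other forms of these sites. The 8 ETS matches are printed in 30 bases each, 5′ to 3′ on the strand of the gene, since they join genes of all 3 complexes, with the motif in capitals.
Atp5f1e, chr2:174464185-174464214, minus strand: tacggccacagCTTCCGGtagccgctcggc
Atp5mg, chr9:44920936-44920965, minus strand: acttcaccgatCTTCCGGaccaacatgaat
Atp5pd, chr11:115419939-115419968, minus strand: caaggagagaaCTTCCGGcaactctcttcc
Atp5pf, chr16:84835019-84835048, minus strand: agctgagggacCCGGAAGcacttaccctcc
Cox6a1, chr5:115348959-115348988, minus strand: cgtccccatttccgCTTCCGGcgcgccggt
Cox6b1, chr7:30626124-30626153, minus strand: tcctctcgcagCTTCCGGccagtcggaatt
Uqcr11, chr10:80406869-80406898, minus strand: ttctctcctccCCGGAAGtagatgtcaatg
Uqcrh, chr4:116075071-116075100, minus strand: actacgaggagtatgccgcaCTTCCGGcca

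The 3 NRF1 matches and the YY1 match are shown in the same way, with the motif in capitals. Cox6a1 and Atp5pf appear in both sets: each held 2 different motifs.
Atp5mc2, chr15:102671070-102671099, minus strand: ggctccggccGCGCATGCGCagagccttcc
Atp5me, chr5:108434430-108434459, minus strand: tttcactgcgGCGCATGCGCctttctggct
Cox6a1, chr5:115349101-115349130, minus strand: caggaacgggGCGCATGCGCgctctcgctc
Atp5pf, chr16:84835046-84835075, minus strand: aaagtgtaggaAAGATGGCggagtcttagc

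Of the 47 members, 39 had enough counts to be tested, 9 of complex III, 12 of complex IV and 18 of the ATP synthase. In edgeR's quasi-likelihood test, with Benjamini-Hochberg adjustment over all 14755 genes tested, 0 members passed an adjusted p of 0.05. The percentage called among all genes was 0 as well, and the typical spread between libraries was large, with a biological coefficient of variation of 1.29. What follows is therefore a description of levels. The log2 change, KO minus WT, was negative for 37 of the 39, where 56.8% of all genes tested were negative. The median was -1.83 for complex III, -1.99 for complex IV and -2.13 for the ATP synthase, against -0.42 for all genes. Members are abundant, and abundant genes as a class lay low too: of 2010 protein-coding genes with a mean of at least 100 normalised CPM, 89.7% were negative and their median was -1.60. Among the 33 members in that class, 32 were negative. The mean runs over all 8 libraries, 5 of them WT, so a gene can enter the class through its WT values alone. Atp5pb did so, with a mean of 554 in the WT and 45.3 in the KO group. Signs and shares inside the class are therefore in part set by how it was chosen. The 2 positive members were Uqcrfs1 and Cox4i2, where 43.2% of all genes were positive. With the KO group lower, 15 of the 39 members had an unadjusted p under 0.05, beside 6.43% of all genes and 27.5% of the abundant class. This count was 3 without KO library 3, 4 without KO library 2, and 7 without WT library 4, WT library 5 or KO library 1. It was 4 on library totals and 3 with upper-quartile scaling. With the KO group higher, 7.96% of all genes had such a p, and the 1 member, Cox4i2, is not counted as a result because it passed the filter on low counts through the KO libraries alone. In 6 of the 39 members, all in the abundant class, the 3 KO libraries lay below all 5 WT ones, which 4.49% of all genes and 20% of the abundant class showed. These were Cox5b, Cox6a1, Atp5f1b, Atp5mc3, Atp5pd and Atp5pf.

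**Figure D1:**
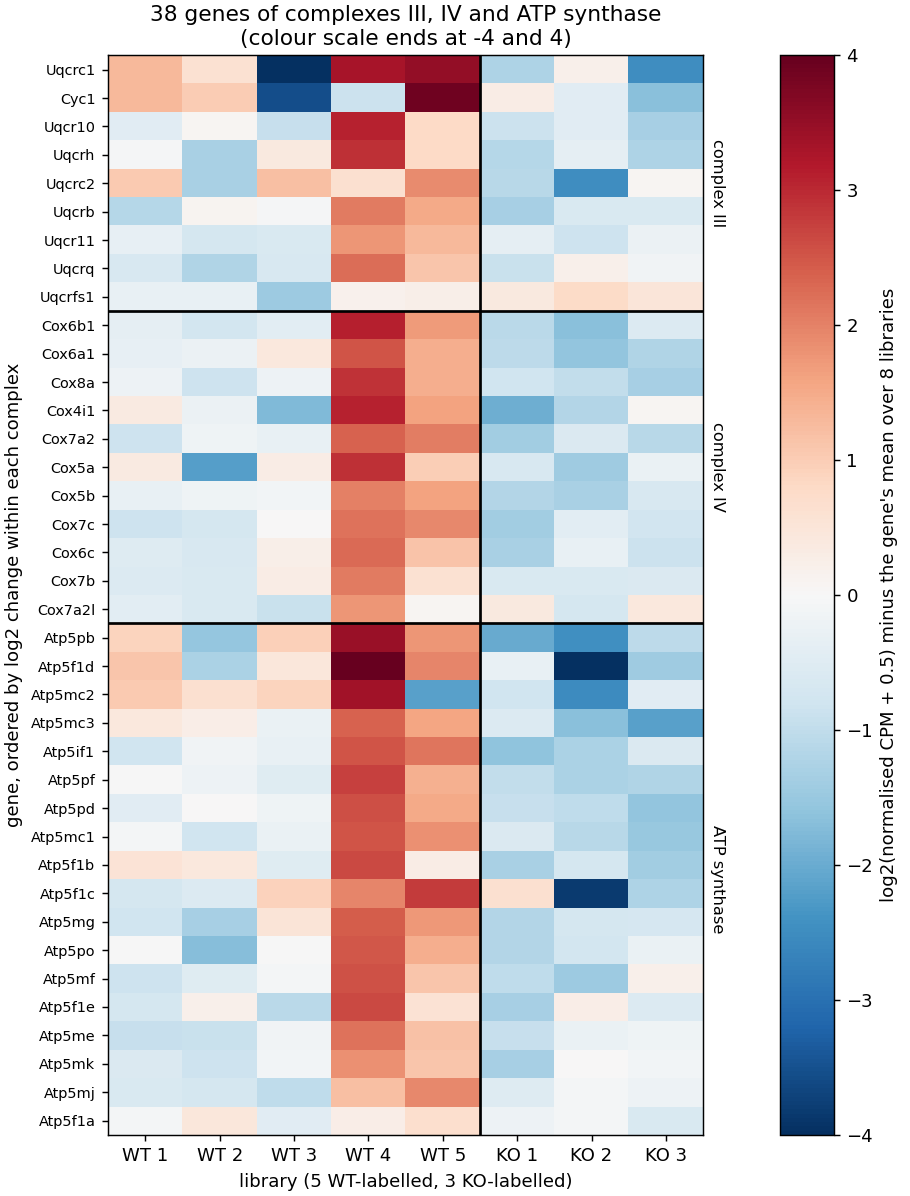
Level of 38 genes of complexes III, IV and ATP synthase in each of the 8 libraries, as the log2 of normalised CPM plus 0.5 minus the mean of the gene over the libraries, with the colour scale ending at -4 and 4. WT library 4 and, to a lesser degree, WT library 5 form the high columns, and Uqcrfs1 runs against the rest with its highest values in the 3 KO libraries.

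Much of this difference came with 2 libraries. The median member stood 2.45 log2 units above its own mean over libraries in WT library 4 and 1.45 above it in replicate 5. Relative to the same mean it stood at -0.33, -0.57 and -0.18 in WT libraries 1, 2 and 3 and at -0.999, -0.72 and -0.62 in KO libraries 1 to 3. Without WT library 4 alone, the medians were -1.01, -1.29 and -1.44 for complexes III, IV and the ATP synthase. Without WT libraries 4 and 5, they were -0.52, -0.50 and -0.67 for complexes III, IV and the ATP synthase, beside -0.15 for all genes and -0.86 for the abundant class. Negative changes then numbered 30 of 39, against 53.5% of all genes. With library totals in place of the TMM factors they numbered 32 of 39, against 45.3%. The medians were then -0.86, -0.89 and -1.09, beside 0.21 for all genes and -0.73 for the abundant class. With upper-quartile scaling the medians were -0.94, -0.94 and -1.21, beside 0.32 for all genes, with 32 of 39 members negative. The share of negative genes in the abundant class was not taken for these alternative fits. Library totals alone thus moved the median of all genes from -0.42 to 0.21.

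Shares of all counts, which do not depend on the scaling factors, showed the same 2 libraries apart. The members together held 0.768, 0.662, 0.848, 1.78 and 1.56% of the counts in WT libraries 1 to 5 and 0.605, 0.769 and 0.686% in KO libraries 1 to 3. The KO values lay in and just below the range of WT libraries 1 to 3, and far below replicates 4 and 5. The ATP synthase genes held 0.540 ± 0.242% (SD, n = 5) in the WT and 0.310 ± 0.0225% (SD, n = 3) in the KO group, while the mean over WT libraries 1 to 3 was 0.366 ± 0.0446%. For complex IV the values were 0.399 ± 0.193%, 0.228 ± 0.0302% and 0.262 ± 0.0457% in the same order. For complex III they were 0.183 ± 0.0732%, 0.148 ± 0.0320% and 0.131 ± 0.00446%, so here the KO mean was above that of the first 3 WT libraries. As a share of protein-coding counts, the KO means were 0.210, 0.325 and 0.439% for complexes III, IV and the ATP synthase, against 0.214, 0.465 and 0.631% in all 5 WT libraries and 0.159, 0.319 and 0.446% in WT libraries 1 to 3.

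**Figure D2:**
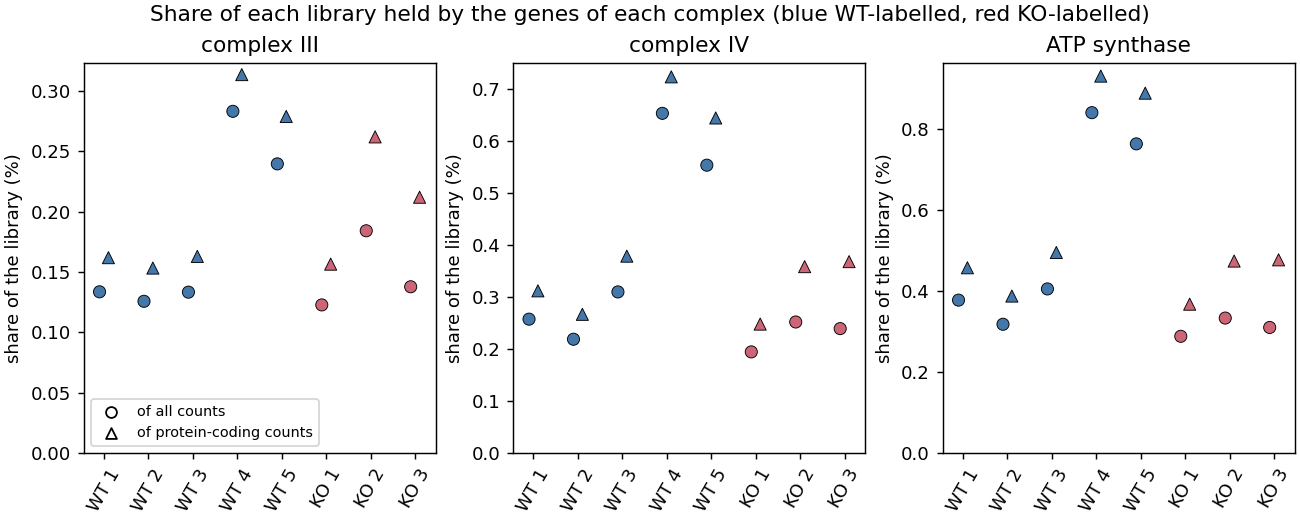
Percent of all counts held by the members of each complex, as circles, and percent of protein-coding counts, as triangles, in each of the 5 WT (blue) and 3 KO (red) libraries. In each panel the circles and triangles of WT libraries 4 and 5 lie above those of all 3 KO libraries.

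With all 8 libraries, Uqcrfs1 was the 1 complex III gene with a positive log2 change. Uqcr11 and Uqcrq were positive too without WT libraries 4 and 5, and Uqcrq also on library totals. Uqcrfs1 (ENSMUSG00000038462, chr13:30540308-30545362 on the minus strand, GRCm38) encodes the Rieske protein, which carries the iron-sulfur cluster of the complex. It stood at 172, 175, 78.6, 240.2 and 253 normalised CPM in WT libraries 1 to 5 and at 283, 360.2 and 296 in KO libraries 1 to 3. All 3 KO libraries were above all 5 WT ones, which 13.2% of all genes and 5.57% of the abundant class showed in this direction. The log2 change was 0.77 (SE 0.55, edgeR adjusted p 0.475), with a 95% interval from -0.46 to 1.999. It was positive in all 20 alternative fits, between 0.31 with DESeq2 and 1.67, and was 1.18 without WT libraries 4 and 5 and 1.56 on library totals. As a share of library totals Uqcrfs1 stood at 196, 189, 83.7, 95.1 and 172 CPM in the WT and 382, 527 and 384 CPM in the KO libraries, again without overlap, which 18.9% of all genes showed on that scale with the KO group higher.

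The make-up of complex III counts differed in the same way. Uqcrfs1 was 14.7, 15.1, 6.28, 3.36 and 7.17% of the complex III counts in WT libraries 1 to 5 and 31.2, 28.6 and 27.9% in KO libraries 1 to 3, so the lowest KO share was above the highest WT one. Complex III as a whole was 15.4 to 19.0% of the counts of all members in the WT and 20.1 to 23.9% in the KO libraries. With Uqcrfs1 left out of both sums these ranges became 14.5 to 16.6% and 14.9 to 18.3%, which overlap. The 204 bases before the Uqcrfs1 start that lie outside annotated exons are printed. This gene was chosen as the complex III member with a positive change in the main fit. None of the 4 motifs was in these bases.
Uqcrfs1, chr13:30545363-30545566, minus strand: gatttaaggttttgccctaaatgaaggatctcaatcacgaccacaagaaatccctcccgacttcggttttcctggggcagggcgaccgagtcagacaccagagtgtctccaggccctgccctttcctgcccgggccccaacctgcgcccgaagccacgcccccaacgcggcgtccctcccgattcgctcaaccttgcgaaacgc

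The other 8 complex III genes had negative log2 changes with all libraries, beside 56.8% of all genes and 89.7% of the abundant class. For each of these 8 the groups overlapped. Uqcrb, the subunit that helps to form the ubiquinone-binding site, was the most abundant per kb of deposited gene length, at 1444 normalised CPM per kb in the WT and 429.6 in the KO group. Its normalised CPM was 183, 435, 391, 1696 and 1157 in WT libraries 1 to 5 and 161, 266 and 263 in KO libraries 1 to 3. KO libraries 2 and 3 thus lay between WT libraries 1 and 2. The deposited length equalled the longest annotated transcript for 20 of the 47 members, so an order of genes per kb depends on which transcript length is taken. The log2 change of Uqcrb was -1.75 (SE 0.78, edgeR adjusted p 0.346). It was the single complex III gene with an unadjusted p under 0.05, beside 6.43% of all genes and 27.5% of the abundant class.

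Uqcrh, the hinge protein that contacts cytochrome c1, stood at 263, 111, 361, 2057 and 476 normalised CPM in WT and 124, 213 and 115 in KO libraries. Uqcr10, a small subunit, stood at 147, 213, 106, 1695 and 346 in WT and 110.4, 147 and 79.6 in KO libraries. In both genes WT library 4 was far above every other library, and the KO values fell among those of WT libraries 1 to 3 or just under them. Uqcr11, another small subunit, stood at 125, 95.5, 103, 541 and 388 in WT and 121, 87.9 and 135 in KO libraries, and here the KO libraries straddled WT libraries 1 to 3. Log2 changes were -2.12, -2.16 and -1.13 with all libraries, and -0.66, -0.43 and 0.11 without WT libraries 4 and 5, so that of Uqcr11 changed sign.

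The remaining complex III genes were Uqcrc1 and Uqcrc2, which encode the core proteins, Cyc1, which encodes the heme protein cytochrome c1, and Uqcrq. Their log2 changes ran from -3.17 to -0.98, with Uqcrc1 the lowest and Uqcrq the highest. That of Uqcrq was 0.65 without WT libraries 4 and 5 and 0.21 on library totals, so its sign changed. Cyc1, the catalytic member besides the Rieske protein, was the lowest of the complex per kb, at 20.2 normalised CPM per kb in the WT and 3.59 in the KO group. Its normalised CPM was 18.8, 15.2, 0.168, 3.79 and 116 in the WT and 9.18, 5.23 and 1.97 in the KO libraries. WT library 5 alone held a high value, and WT libraries 3 and 4 were below 2 of the 3 KO libraries. Uqcrc1 spread as widely inside the WT group, from 0.252 in replicate 3 to 321 in replicate 5.

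**Figure D3:**
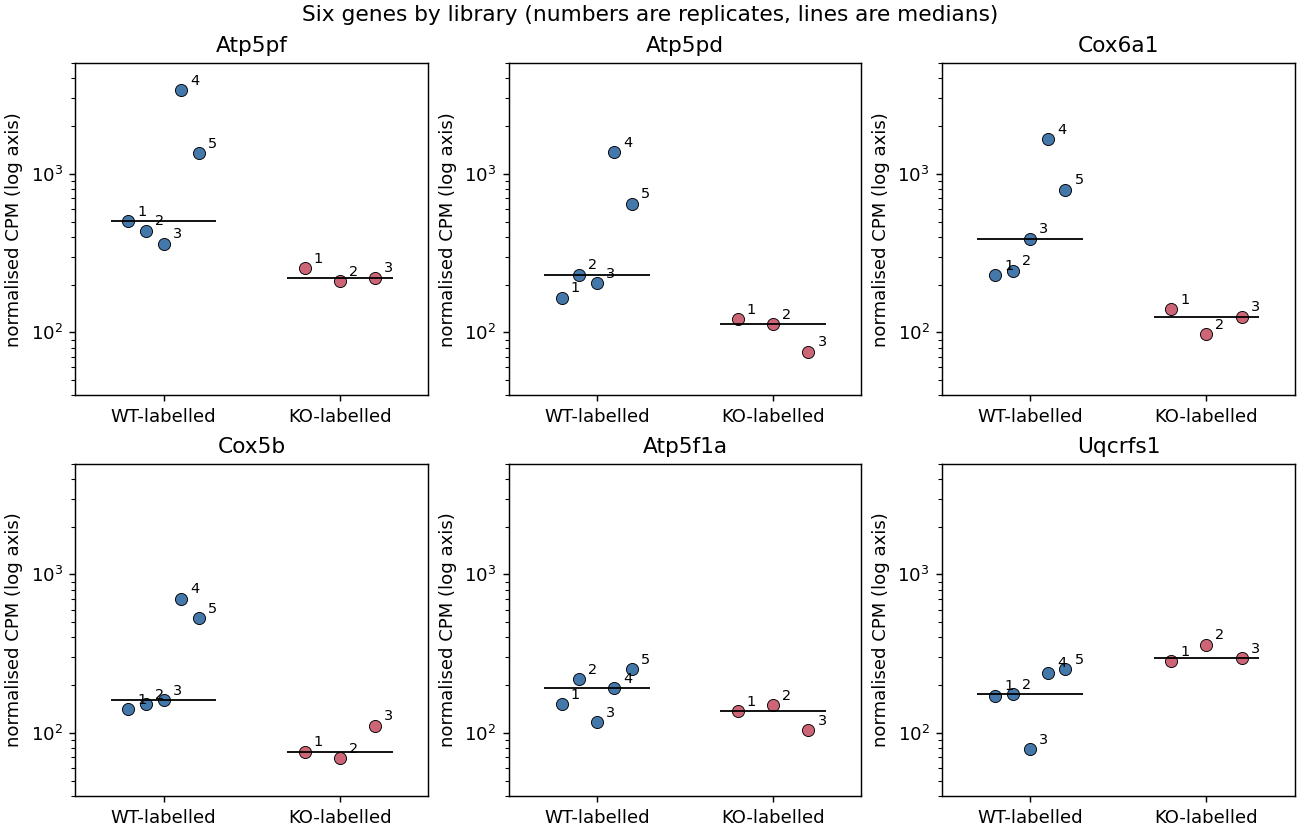
Normalised CPM, on a log axis, of 6 genes in each library, with 1 point per library, numbered by replicate, and a line at the group median. Uqcrfs1 has its 3 KO points above all 5 WT ones, whereas the KO points of Atp5pf and Cox6a1 lie below all WT ones.

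Complex IV had 11 negative log2 changes among its 12 tested genes, beside 56.8% of all genes and 89.7% of the abundant class. Cox5b and Cox6a1 were the 2 whose KO libraries lay below all WT ones. They were 2 of 11 complex IV genes in the abundant class, near the 20% of the whole class. Cox6a1 (ENSMUSG00000041697, chr5:115345642-115348981, minus strand), the widely expressed form of subunit VIa, had the smallest p of the complex. It stood at 229, 244, 389, 1648 and 795 normalised CPM in WT libraries 1 to 5 and at 140.0, 97.3 and 125 in KO libraries 1 to 3. Its log2 change was -2.45 (SE 0.81, edgeR adjusted p 0.325, DESeq2 adjusted p 0.0348) and -1.24 without WT libraries 4 and 5. On library totals the groups still did not overlap and the change was -1.37. Cox6a1 was 1 of 5 members with an unadjusted p under 0.05, KO lower, after leaving out those 2 libraries, where 6.36% of all genes had one. The others were Atp5f1b, Atp5mc3, Atp5pb and Atp5pf, and with the KO group higher it was Uqcrfs1, beside 8.75% of all genes. The share of the abundant class was not taken in that fit.

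Cox5b (ENSMUSG00000061518, chr1:36691449-36693681, plus strand), which binds zinc on the matrix side of the oxidase, stood at 141, 152, 160.3, 701 and 529.7 normalised CPM in the WT and 76.3, 69.2 and 111 in the KO libraries. WT libraries 1 to 3 ran from 141 to 160, and the highest KO value was below them. Its log2 change was -1.98 (SE 0.78, edgeR adjusted p 0.325) and -0.80 without WT libraries 4 and 5. Cox5a, the partner subunit at the matrix face, overlapped between the groups with a log2 change of -2.01.

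The most abundant complex IV genes per kb of deposited length were Cox6c, Cox7c and Cox7a2. Cox6c stood at 392, 358, 669.9, 2712 and 1245 normalised CPM in WT libraries 1 to 5 and at 227, 459 and 311 in KO libraries 1 to 3. Cox7c stood at 189, 209, 341, 1527 and 1287 in WT and 127, 249.9 and 197 in KO libraries. In Cox6c and Cox7c, KO library 2 was higher than WT libraries 1 and 2, so the groups overlapped well inside their ranges. Cox7a2, the widely expressed form of subunit VIIa, stood at 189, 296, 274, 1719 and 1401 in WT and 128, 225 and 155 in KO libraries. Cox6b1, which faces the intermembrane space near the cytochrome c site, stood at 183, 140.3, 175, 2031 and 761 in WT and 111, 72.5 and 159 in KO libraries, and Cox8a at 187, 119.8, 186, 1590.0 and 585 in WT and 122, 109 and 85.2 in KO libraries. Unadjusted p-values were 0.0329, 0.0359 and 0.0349 for Cox7a2, Cox6b1 and Cox8a, with log2 changes of -2.19, -2.53 and -2.34. Without WT libraries 4 and 5 these changes were -0.54, -0.52 and -0.62.

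Cox7b stood at 247, 237, 442, 1533 and 554 normalised CPM in the WT and at 239.6, 238 and 243 in the KO libraries, and all 3 of the latter lay between WT libraries 2 and 1. Its log2 change was -1.33 (SE 0.72). Cox7a2l, which ties complex III and complex IV together in supercomplexes, had the change closest to 0 of the complex, -0.23 (SE 0.81). Its normalised CPM was 72.5, 64.6, 52.7, 334 and 103 in WT libraries 1 to 5 and 128, 60.7 and 132 in KO libraries 1 to 3. It was 3.21, 3.19, 1.81, 2.02 and 1.27% of the complex IV counts in the WT and 8.90, 3.53 and 7.12% in the KO libraries, so all 3 KO shares were the higher ones. Such a share also depends on the other complex IV genes, and the level of Cox7a2l itself overlapped between groups. How many members were set apart by their share was not counted. The sign of its log2 change depended on the fit, with 11 negative and 9 positive values in 20 alternatives, among them 0.77 without WT libraries 4 and 5.

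Complex IV has paired isoforms, 1 expressed widely and 1 known from heart and muscle, lung or testis, and the isoform pattern was that of the widely expressed forms. Cox4i1 stood at 265, 173, 60.4, 1712 and 627 normalised CPM in the WT and 52.4, 89.7 and 216 in the KO libraries. Cox4i2, the form known from lung and from oxygen-dependent regulation, had 2, 9, 7, 0 and 1 counts in WT libraries 1 to 5 and 11, 7 and 18 in KO libraries 1 to 3. In normalised CPM these were 0.166, 0.780, 0.588, 0 and 0.139 in WT and 0.962, 1.05 and 3.22 in KO libraries, with every KO library above every WT one. That order was seen in 13.2% of all genes, and the raw counts of Cox4i2 overlapped. It is not counted as a result, because Cox4i2 passed the filter on low counts through the KO libraries alone. The log2 change was 2.28 (SE 1.02, edgeR adjusted p 0.346), at a level where a few counts set the value. No WT library reached 10 counts. Cox7a1, the heart and muscle form, had 0, 0, 1, 0 and 0 counts in the WT and 53, 1 and 5 in the KO libraries. It was too low for the edgeR test, and its DESeq2 adjusted p of 0.0393 came with most counts in KO library 1. Cox6a2, Cox6b2, Cox7b2 and Cox8b, the forms known from heart and muscle, testis or brown fat, had 0 counts in all 8 libraries, and Cox8c had 1 count, in KO library 3. A count of 0 allows up to 3 counts in a library, for counting error only. Cox6c2, which the annotation calls a processed pseudogene, also had 0 counts.

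**Figure D4:**
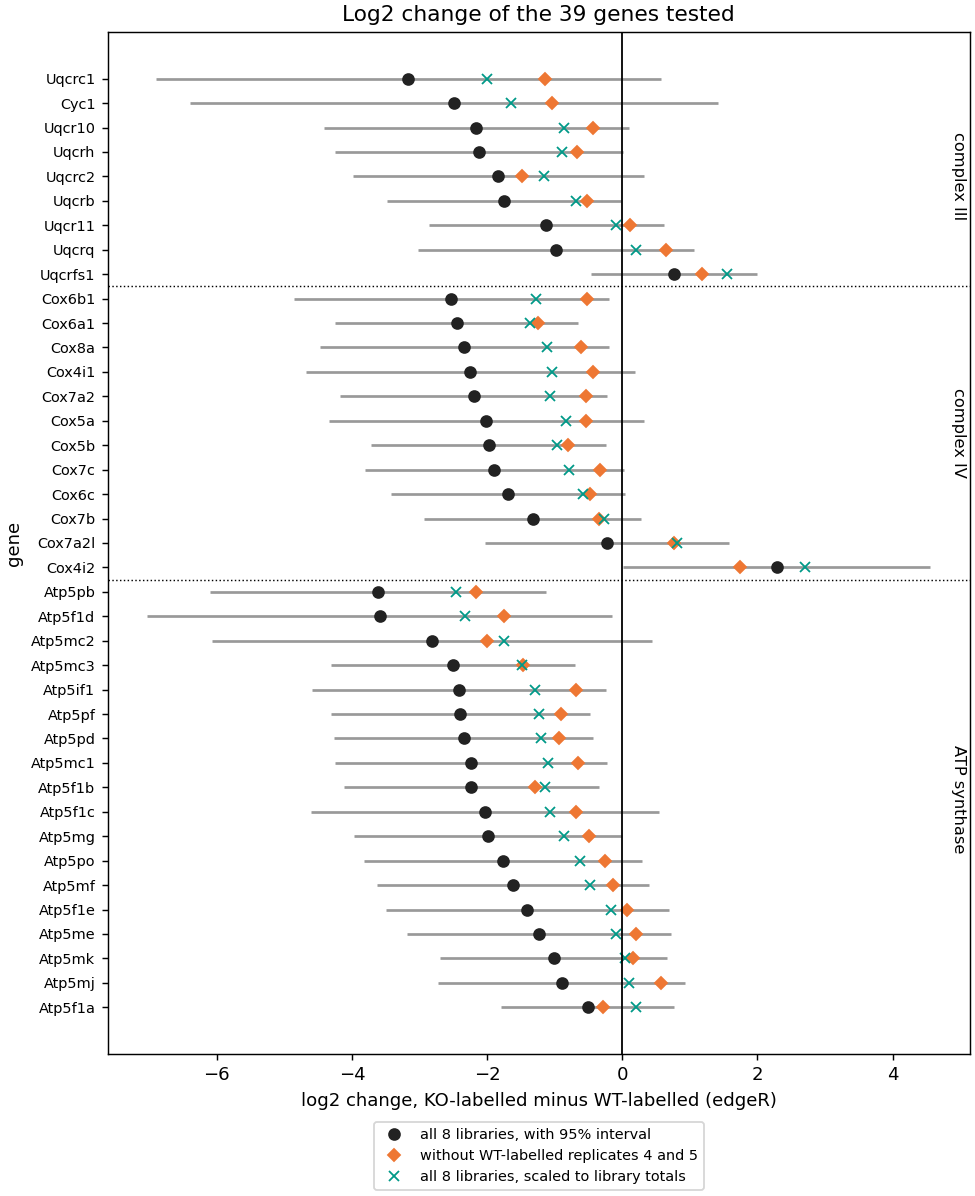
Log2 change, KO minus WT, of the 39 genes tested, as black points with 95% intervals from edgeR on all 8 libraries, orange diamonds for the fit without WT libraries 4 and 5, and crosses for the fit on library totals. Of the 39 black points 37 lie below 0, against 30 of the diamonds. The other 2 are Uqcrfs1 and Cox4i2, the latter with few counts.

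All 18 tested ATP synthase genes had a negative log2 change, beside 56.8% of all genes and 89.7% of the abundant class. Of the 18, 9 had an unadjusted p under 0.05, KO lower, beside 6.43% of all genes. In the abundant class these were 8 of 16, beside 27.5% of the class. In 4 of the 18, Atp5f1b, Atp5mc3, Atp5pd and Atp5pf, the KO libraries lay below all WT ones. These were 4 of the 16 in the abundant class, near the 20% of the whole class. The catalytic head is made of alternating alpha and beta subunits around gamma, with delta and epsilon below. Atp5f1b, the beta subunit with the catalytic sites, stood at 238, 219, 116, 1016 and 202 normalised CPM in WT libraries 1 to 5 and at 65.7, 101 and 61.4 in KO libraries 1 to 3. Its log2 change was -2.23 (SE 0.84, edgeR adjusted p 0.325) and -1.29 without WT libraries 4 and 5. Atp5f1a, the alpha subunit, behaved otherwise, at 151, 219, 116, 191 and 252 in WT and 137, 149.5 and 104 in KO libraries. KO libraries 1 and 2 lay inside the WT range and KO library 3 just below it, WT library 4 was not high, and the change was -0.51 (SE 0.57), negative in 18 of 20 alternatives. Of the ATP synthase counts, Atp5f1a was 4.56, 7.45, 3.06, 0.901 and 2.25% in the WT and 6.43, 6.58 and 4.36% in the KO libraries.

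The other head subunits spread more between libraries. Atp5f1d, the delta subunit, stood at 54.4, 10.1, 33.96, 400.2 and 96.95 normalised CPM in the WT and 20.03, 0.598 and 8.95 in the KO libraries. WT library 2 lay between KO libraries 1 and 3. Its log2 change of -3.59 (SE 1.54) had an edgeR adjusted p of 0.336 and a DESeq2 adjusted p of 0.0371. Atp5f1e, the epsilon subunit, stood at 145, 268, 111, 1472 and 348 in WT and 92.6, 281 and 159 in KO libraries, with KO library 2 above 3 of the 5 WT libraries. Its change was -1.40, and 0.07 without WT libraries 4 and 5. For Atp5f1c, the gamma shaft, KO libraries differed from 11.5 in replicate 2 to 271 in replicate 1.

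Subunits of the peripheral stalk, which holds the head still, gave 3 of the 4 smallest unadjusted edgeR p-values of the complex. The edgeR adjusted p was 0.325 for each of these 3, and the remaining stalk gene, Atp5po, had an unadjusted edgeR p of 0.0850. The ranking was seen in these data, and the stalk as a part was not tested. Atp5pb (ENSMUSG00000000563, chr3:105942698-105960099, minus strand), subunit b, stood at 280.0, 51.3, 287, 1646 and 507 normalised CPM in the WT and 36.4, 26.9 and 72.5 in the KO libraries. Only WT library 2 lay inside the KO range. Its log2 change of -3.61 (SE 1.11) was the lowest of all members tested, with an edgeR adjusted p of 0.325, a DESeq2 adjusted p of 0.0115 and a change of -2.16 without WT libraries 4 and 5. Its exons overlap those of Wdr77 on the opposite strand, and the library kit does not mark strand.

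Atp5pf (ENSMUSG00000022890, chr16:84827866-84835625, minus strand), coupling factor 6, stood at 501, 438, 361, 3358 and 1346 normalised CPM in WT libraries 1 to 5 and at 254, 211 and 221 in KO libraries 1 to 3. The KO libraries were close to each other and below every WT one. Its change was -2.39 (SE 0.86, edgeR adjusted p 0.325, DESeq2 adjusted p 0.0496), and -0.90 without WT libraries 4 and 5. Atp5pd (ENSMUSG00000034566, chr11:115415689-115419962, minus strand), subunit d, stood at 166, 231, 203, 1370.5 and 647 in WT and 121, 112 and 75.3 in KO libraries. Its change was -2.35 (SE 0.86, DESeq2 adjusted p 0.0496) and -0.94 without those 2 libraries. Both genes also kept their groups apart on library totals, as did Cox5b and Cox6a1, where 1.66% of all genes did so with the KO group lower. The share of the abundant class was not taken on that scale. Atp5po, the fourth stalk subunit, overlapped between groups with a change of -1.76, and a second row of that symbol held 0 counts.

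The rotor ring is made of subunit c, encoded by 3 genes that give the same mature protein. Atp5mc3 (ENSMUSG00000018770, chr2:73908447-73911326, minus strand) stood at 319, 288, 201, 1227 and 722 normalised CPM in WT libraries 1 to 5 and at 163, 74.8 and 53.2 in KO libraries 1 to 3, without overlap. Its log2 change was -2.51 (SE 0.81, edgeR adjusted p 0.325, DESeq2 adjusted p 0.0291) and -1.47 without WT libraries 4 and 5. Atp5mc1 stood at 209, 126, 183, 1262 and 775 in WT and 146, 102 and 76.6 in KO libraries, so only WT library 2 fell inside the KO range. Atp5mc2 stood at 21.2, 15.96, 19.2, 107 and 1.81 in WT and 5.51, 1.35 and 7.16 in KO libraries. WT library 5 was among the KO values, and WT library 4 far above. The 250 bases before the Atp5mc3 start hold no annotated exon and are printed as those of a gene with low KO levels, with its CCAAT box in capitals.
Atp5mc3, chr2:73911327-73911576, minus strand: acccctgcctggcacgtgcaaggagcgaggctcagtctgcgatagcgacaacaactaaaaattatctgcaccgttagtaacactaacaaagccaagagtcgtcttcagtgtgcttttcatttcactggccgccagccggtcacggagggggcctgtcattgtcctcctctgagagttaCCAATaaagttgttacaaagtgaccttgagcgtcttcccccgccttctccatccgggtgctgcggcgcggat

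Small membrane subunits included the most abundant genes of the complex per kb of deposited length. Atp5mg, subunit g, stood at 305, 210.1, 768, 2876 and 1777 normalised CPM in the WT and 237, 326 and 338 in the KO libraries. Atp5mk, a small subunit linked to dimers of the enzyme, stood at 224, 191, 312, 1212 and 724 in WT and 136, 343 and 314 in KO libraries. KO libraries 2 and 3 were above WT libraries 1 to 3 in Atp5mk, whose change was -1.01 (SE 0.75) with all libraries and 0.17 without WT libraries 4 and 5. The change of Atp5mg was -1.98 (SE 0.89), and -0.49 without those 2. Atp5mj, which is another such small subunit, had all 3 KO values (120 to 163) above WT libraries 1 to 3 (84.5 to 111) and below replicates 4 and 5 (397 and 648); 16.2% of all genes had their KO values above these first 3 WT libraries. Atp5if1, the inhibitor of reverse ATP hydrolysis, had a change of -2.42 (SE 0.97, edgeR adjusted p 0.325) and -0.68 without those libraries. Atp5me and Atp5mf, the other 2 small subunits, had changes of -1.23 and -1.62, and 0.21 and -0.14 without them.

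DESeq2, run as an alternative, passed 6 of the 39 members to which it gave an adjusted p with the KO group lower: Atp5f1d, Atp5mc3, Atp5pb, Atp5pd, Atp5pf and Cox6a1. This is 5 ATP synthase genes and 1 of complex IV, against 5.24% of all genes in that direction, and Atp5f1b was given no adjusted p. The abundant class lay low too, and its share passing DESeq2 was not taken, so members cannot be set against genes of like level here. With the KO group higher it passed Cox7a1, against 3.84%. Limma-voom passed 0 members, against 0.0271% of all genes lower and 0.122% higher. Across 38 members the log2 change had little relation to gene length (Pearson's r -0.06, Spearman's rho -0.21) or to the level per kb (0.03 and 0.12). These correlations run over genes that share the same 8 libraries and carry no test.

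All 6 mitochondrially encoded subunits of these complexes also had negative log2 changes, beside 56.8% of all genes and 89.7% of the abundant class. Of the 6 subunits, mt-Cytb, mt-Co1, mt-Co2 and mt-Atp6 had an unadjusted p under 0.05 with the KO group lower. This was so in 6.43% of all genes and 27.5% of the abundant class, and 0 of the 6 passed edgeR's adjusted p. Cytochrome b of complex III, mt-Cytb, stood at 2368, 3593, 3364, 19546 and 10428 normalised CPM in WT libraries 1 to 5 and at 3186, 891 and 816 in KO libraries 1 to 3. KO library 1 lay among WT libraries 1 to 3, and KO libraries 2 and 3 lay below all 5. In mt-Co1, the catalytic subunit of complex IV with heme and copper, the values were 2776, 4765, 3528, 28541 and 9076 in WT and 3372, 908 and 867 in KO libraries, with the same split. In mt-Co2, which takes electrons from cytochrome c through a copper centre, they were 2031, 2164, 3083, 19867 and 7999 in WT and 2009, 1431 and 1074 in KO libraries, and only here did the groups not overlap. KO library 1 was just under WT library 1. With the KO group lower, 4.49% of all genes and 20% of the abundant class had no overlap.

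The third core subunit, mt-Co3, stood at 797, 384, 806, 7026 and 1948 in WT and 697, 468 and 92.5 in KO libraries. The proton-channel subunit mt-Atp6 stood at 6141, 6261, 8816, 37489.7 and 15607 in WT and 8042, 3732 and 3212 in KO libraries, and mt-Atp8 at 376, 358, 469, 1057 and 357 in WT and 427, 152 and 134 in KO libraries. Log2 changes were -2.27, -2.50, -2.22, -2.39, -1.57 and -1.14 in the order named. Without WT libraries 4 and 5 they were -0.95, -1.12, -0.68, -0.65, -0.50 and -0.76.

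The balance of mitochondrial to nuclear transcripts separated the KO libraries from each other. For complex III, counts of mt-Cytb per count of the nuclear members were 2.02, 3.09, 2.69, 2.73 and 2.96 in WT libraries 1 to 5 and 3.50, 0.709 and 0.767 in KO libraries 1 to 3. For complex IV the ratio was 2.48, 3.62, 2.55, 3.36 and 2.34 in the WT and 4.22, 1.63 and 1.10 in the KO libraries. KO library 1 was above all WT libraries in both complexes, and KO libraries 2 and 3 were below all of them. For the ATP synthase it was 1.97, 2.25, 2.44, 1.82 and 1.42 against 3.97, 1.71 and 1.40, where KO library 2 lay inside the WT range. KO libraries 2 and 3 were also the 2 libraries with the lowest totals, 4.57 and 4.31 M, and the lowest protein-coding shares, 70.3 and 65.0%. The part of these measures in the ratios was not tested. In WT libraries 4 and 5 the ratios of complexes III and IV lay within or next to the range of replicates 1 to 3, although the levels of both kinds of transcript were highest there.

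**Figure D5:**
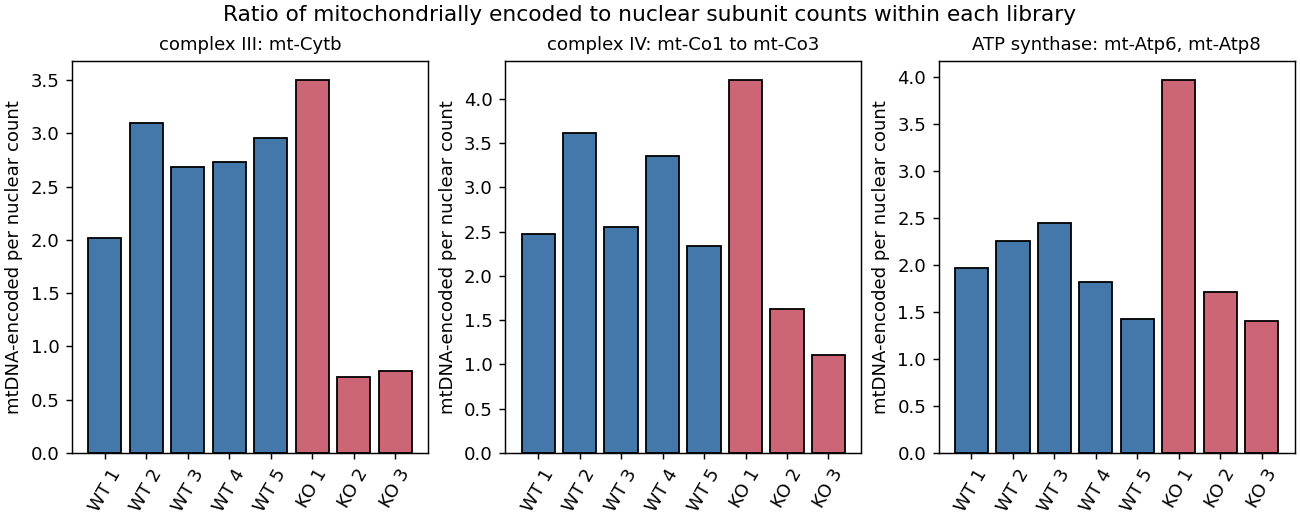
Counts of mitochondrially encoded subunits per count of the nuclear members of the same complex, with 1 bar per library (5 WT in blue, 3 KO in red). KO library 1 is the highest bar in each panel, and KO libraries 2 and 3 are below all 5 WT libraries for complexes III and IV.

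Other genes of the pathway, taken from lists, gave 0 edgeR calls in any list. Ndufa4, a subunit of complex IV outside the name rule, stood at 195, 204, 229, 2325 and 827 normalised CPM in the WT and 170.3, 163 and 152 in the KO libraries, the latter below all of the former. This was so in 4.49% of all genes and 20% of the abundant class. Cycs, the cytochrome c that links complexes III and IV, had a log2 change of -2.30 (edgeR adjusted p 0.326) and overlapped between groups, and Cyct, the testis form, had 0 counts. Among 23 tested assembly factors of complex IV, 16 changes were negative and 7 positive, where 56.8% of all genes were negative. Their median was -1.71, or -0.25 without WT libraries 4 and 5, beside -0.42 and -0.15 for all genes. DESeq2 passed 2 of the 23 with the KO group lower, Higd2a and Fastkd2, against 5.24% of all genes. Higd2a, which acts in complex IV assembly, stood at 84.5, 139, 156, 788 and 169.8 in WT and 67.4, 2.24 and 1.07 in KO libraries. Fastkd2, a mitochondrial RNA-binding protein, stood at 18.9, 3.73, 119, 596 and 81.7 in WT and 27.5, 3.14 and 0.895 in KO libraries, and its groups overlapped. Those of Higd2a did not, as in 4.49% of all genes and 20% of the abundant class.

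The copper-handling assembly factors did not go one way. Cox11, which serves the copper site of the catalytic subunit, stood at 47.1, 20.03, 14.1, 9.41 and 29.9 normalised CPM in WT libraries 1 to 5 and at 49.2, 62.7 and 75.3 in KO libraries 1 to 3. Sco1, a copper chaperone for mt-Co2, stood at 2.24, 3.47, 3.61, 0.562 and 1.39 in WT and 4.37, 6.43 and 8.41 in KO libraries. In both genes every KO library was above every WT one, as in 13.2% of all genes, with log2 changes of 1.37 and 1.49 and edgeR adjusted p-values of 0.428 and 0.414. Cox17, which hands copper to Sco1 and Cox11, stood at 82.4, 87.2, 109, 494 and 463 in WT and 40.8, 96.9 and 89.3 in KO libraries, with a change of -1.71 and of -0.25 without WT libraries 4 and 5. Cox19 stood at 14.5, 0, 0, 132 and 20.9 in WT and 5.25, 0 and 1.43 in KO libraries. Its change was -3.89 (edgeR adjusted p 0.471), and -1.10 without WT libraries 4 and 5. Sco2, which was not tested, stood at 0.083, 0, 0, 187 and 0 in WT and at 0 in all KO libraries.

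Of 6 tested complex III assembly factors 5 changes were negative and 1 positive, and of 4 ATP synthase assembly factors 3 and 1. Of 12 tested regulators of respiratory genes, 10 changes were negative and 2 positive. Among all genes tested 56.8% were negative, so sign counts in such short lists say little. Gabpa, which binds the ETS core printed above, stood at 122, 179.8, 43.5, 6.18 and 218 normalised CPM in the WT and 15.04, 25.6 and 3.04 in the KO libraries. WT library 4, the library with the highest levels of most members, had the lowest WT Gabpa value. The change of Gabpa was -2.97 (edgeR adjusted p 0.337, DESeq2 adjusted p 0.0487), and 397 of its exon bases are shared with Atp5pf on the opposite strand. Ppargc1a, a coactivator of mitochondrial biogenesis, stood at 0.913, 0.954, 0.168, 0.281 and 0.139 in WT and 0.525, 5.08 and 48.9 in KO libraries. KO library 3 held the high value, and the DESeq2 adjusted p was 0.0109. Nrf1 stood at 4.15, 38.8, 36.8, 2.81 and 186 in WT and 40.2, 7.33 and 16.8 in KO libraries, with groups that overlapped.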

How the data were processed

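RNA sequencing libraries of total RNA from 8 sorted mouse Treg cell samples were prepared with SMART-Seq v4, which copies whole transcripts from little RNA and keeps no strand, per the labels' protocols. The deposited values are expected counts, that is estimated numbers of reads for each gene; they were not whole in at least 1 library for 27 members. Per the submitters' processing notes, the mm10 build was used with DESeq2, RSEM, StringTie, HISAT2 and fastp. Versions and the gene annotation are not given in the sources used here. The authors' group mean columns and 0 columns of other samples were used in no step; the authors' WT mean matched these 5 libraries in 36.85% of genes (tolerance 0.001). Gene lengths were the authors' deposited ones. Coordinates, gene types and exon overlaps came from GENCODE M21 (51884 of 57180 genes found by identifier), and 16 members have exons that overlap another gene.

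Groups were taken from the sample titles. Expected counts were rounded and tested in R 4.3.3 with edgeR 4.0.16: filterByExpr with a minimum count of 10, TMM factors and the quasi-likelihood test, two-sided, on all 8 libraries without covariates, adjusted by Benjamini-Hochberg over all genes tested. Normalised CPM are counts per mega count of library size, after TMM. SE is the size of the log2 change divided by the root of the F statistic. Named members, 31 in all, were in each complex the 4 highest per kb, the 3 with the smallest p, those passing edgeR or DESeq2, those with a positive change, and the isoform pairs; Atp5f1b, Atp5f1a, Atp5f1c, Atp5if1, Atp5me, Atp5mf, Atp5mj, Atp5po, Cox5a, Cox7a2l, Cyc1, Uqcrc1, Uqcrc2 and Uqcrq, and the genes singled out of the lists, were added after their values were seen. Members and lists were chosen with earlier results of these data known. Of 8 members not tested, 6 had 0 counts. Low genes were limited by depth, with 4.31 to 17.98 M (mega counts) per library, and the limit set by a count of 0 covers counting error only since reads carry no molecular identifiers. Within groups, no 2 libraries agreed within sampling noise (lowest chi-square per degree of freedom 66.8). Alternatives were other scalings and filters, DESeq2 1.42.0, limma-voom (limma 3.58.1) with quality weights, a replicate block, leaving out libraries, leaving out mitochondrial and receptor genes, and, added after seeing the data, protein-coding genes only, olfactory and vomeronasal receptors left out. The procedure was tested on simulated data. Figures were drawn with matplotlib 3.10.9.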

Additional observations from a re-analysis of the deposited data

Results flagged for a closer look

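Of 34 named sets of 5 WT values that were checked, 10, each of 1 gene, had replicate 4 far above the other 4 libraries. The gap between replicate 4 and the next library, divided by the range of the group, was compared with a critical value of 0.71. It was 0.849 for Uqcr10, 0.812 for Uqcrh, 0.756 for Cox7b, 0.715 for Atp5pb, 0.777 for Atp5f1d, 0.815 for Atp5mc2 and 0.826 for Atp5f1e. For the mitochondrially encoded genes it was 0.755 for mt-Co1, 0.765 for mt-Co3 and 0.84 for mt-Atp8. These are values of 1 library, so the 10 genes are not independent cases.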

How the results depend on the processing

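edgeR called 0 genes of all tested with all 8 libraries, with 949 lower and 1175 higher at an unadjusted p under 0.05. The count was 1 with library totals, 1 with upper-quartile scaling, 1 with no filter, 1 with a mean of at least 5 CPM, 22 with limma-voom and 1389 with DESeq2, and 0 in each fit that left out a library. Counts of negative members per complex stayed within 1.5 times in all alternatives. Median log2 changes of complexes III, IV and the ATP synthase were -0.53, -0.78 and -1.07 with limma-voom, -0.52, -0.50 and -0.67 without WT libraries 4 and 5, -0.86, -0.89 and -1.09 with library totals and -0.94, -0.94 and -1.21 with upper-quartile scaling. Members with an unadjusted p under 0.05, KO lower, numbered 15 with all libraries, 3 to 20 with 1 library left out, 4 with library totals, 3 with upper-quartile scaling, 19 with DESeq2's size factors, 23 with no filter and 5 with protein-coding genes only. The same-numbered libraries correlated at 0.0175, 0.0202 and 0.0466, so the numbers were not taken as pairs; with the replicate block, which compares only replicates 1 to 3, the medians were -0.0726, -0.54 and -0.72 and calls 0. KO shares became 0.210, 0.325 and 0.439% of protein-coding counts. With 1 library left out, medians ran from -2.08 to -1.01, -2.22 to -1.29 and -2.31 to -1.44, the last of each without WT library 4. Signs reversed for Atp5mk (0.0476 with library totals, 0.0785 with upper-quartile scaling, 0.0408 with the block, 0.17 without WT libraries 4 and 5), Uqcr11 (0.0733 with the block, 0.11 without those 2) and Atp5f1e (0.0722 without them). Among members named after their values were seen, the sign was positive in 9 of 20 alternatives for Cox7a2l, 5 for Uqcrq, 5 for Atp5mj, 2 for Atp5me and 2 for Atp5f1a. The causes were not tested. Of the values of named members under alternatives, 486 kept direction and side of the threshold, and 6, all with DESeq2, passed it. Totals of KO libraries 2 and 3 limit genes such as Cox4i2 and Cox7a1.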
